A study of Homo sapiens and Mus musculus with 24 samples.

Results

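GAS5, ZFAS1, SNHG3, SNHG6, SNHG7, SNHG8, SNHG12, SNHG15, SNHG16 and SNHG17 are noncoding genes whose introns carry small nucleolar RNAs (snoRNAs), and their RNA was followed through UV irradiation in 4 cell types. They were taken by symbol from a list of snoRNA host genes that leaves out SNHG1, SNHG4 and SNHG5. All 10 were found among 58381 human genes, and 8 of them, without Snhg7 and Snhg16, among 53715 mouse genes. HepG2 is a human hepatocellular carcinoma line, HEK293 a human embryonic kidney line, Neuro2a a mouse neuroblastoma line, and HippCulture a primary culture of hippocampal neurons from E16.5 mouse embryos. Each was sequenced from 3 nonirradiated and 3 UV-irradiated samples, 24 in all, as total RNA freed of ribosomal RNA after TRIzol extraction, and nothing but the UV irradiation is given as different between the groups of a cell type. The labels do not say whether replicates were separate cultures, so p-values measure only the spread between these samples.

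In UPA-seq, UV light joins RNA to the proteins that touch it, and RNA joined to protein leaves the aqueous phase during phenol extraction. A higher level after irradiation is thus relative to the RNA that stayed in the aqueous phase, and changes in recovery and in the amount of RNA per cell cannot be told apart. snoRNA host genes are spliced like other genes, and their introns are trimmed to snoRNAs that guide modification or processing of ribosomal RNA. Many of them belong, with the mRNAs of ribosomal proteins and translation factors, to the terminal oligopyrimidine (TOP) class, whose RNA begins with a C followed by a run of C and T. Their spliced RNA is often exported and, having no long reading frame, tends to be short-lived where it is translated.

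To show how far this applies to the human genes, the 30 bases around the annotated start (10 before it and 20 from it on) are given 5′ to 3′, from the RefSeq promoter table on GRCh38.p14, which held 8 of the 10. Capitals mark a C followed by at least 4 bases that are C or T, read on the transcribed strand, where that C lies within 5 bases of the start.
GAS5: tcatgaattcagatgtgtttattttggagc
ZFAS1: gccattcgttCTTTCgcgtctgcggtgccc
SNHG3: gtgagtttctgattctctaactgcgcatgc
SNHG7: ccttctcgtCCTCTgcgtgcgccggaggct
SNHG8: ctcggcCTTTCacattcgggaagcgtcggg
SNHG12: gcttcagcgcCCTTTCTCCCCgccgcattc
SNHG16: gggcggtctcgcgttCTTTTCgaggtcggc
SNHG17: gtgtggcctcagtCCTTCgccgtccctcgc
The run was found for 6 of the 8, compared with 21.1% of all 35116 promoters and 58 of 78 promoters of cytosolic ribosomal proteins. Other noncoding snoRNA host genes held it in 6 of 15 promoters, protein-coding host genes outside the ribosome in 9 of 29 and other TOP mRNAs in 9 of 13. At the annotated start itself the run was found for ZFAS1 and SNHG12 only among the 8. The shares there were 4.07% of all promoters, 60.3% of those of ribosomal proteins and 69.2% of those of other TOP mRNAs. For other noncoding and protein-coding host genes they were 33.3% and 13.8%. SNHG16 and SNHG17, whose level did not rise with irradiation, hold such a run, and GAS5 and SNHG3 hold none in this window. The RefSeq start of GAS5 lies 163 bases upstream of the 5′ end of the gene as counted, and that of SNHG12 lies 1110 bases inside it, so the window need not be the start used in these cells.

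The files held 36573473 to 53511592 counts on genes per HepG2 sample and 6910907 to 11188033 in the other cell types. Levels are given as CPM, the counts of a gene as a share of the library total, scaled to the same sum in every sample. Where that total was corrected by edgeR's TMM factors they are called normalised CPM, and the log2 fold change is UV-irradiated over nonirradiated. TMM sets the bulk of the genes near no change, and with the library total alone the median of all tested genes moved by −1.305 (HepG2), −0.758 (HEK293), −1.183 (Neuro2a) and −0.544 (HippCulture) on the log2 scale. Markers fitted the labels for HepG2, where 5 hepatocyte genes had 110.5 to 15290 CPM without irradiation and at most 0.73 in HEK293. HEK293 held vimentin at 512.5 to 756.3 CPM but PAX2 at no more than 1.48. Neuro2a had Hand2 at 114.2 to 118.4 CPM with Th at or below 1.61. HippCulture had Tubb3 at 1191 to 1294 CPM and also the astrocyte genes Gfap at 71.5 to 87.1 and Aqp4 at 38.2 to 46.6, and the part of other cells in its values was not tested.

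Most of the snoRNA host genes were higher after irradiation, relative to the bulk of the genes (TMM), in every cell type, while SNHG16 and SNHG17 were not. In HepG2 7 of the 9 tested genes rose and 2 fell, where 38.1% of the 20117 tested genes rose and 40.7% fell (adjusted p under 0.05, edgeR's quasi-likelihood test). In HEK293 8 of 10 rose and 1 fell, against 24.2% and 26.4% of 20472 genes. In Neuro2a 7 of 8 rose and 1 fell, against 28.9% and 33% of 17425, and HippCulture gave the same counts, against 26.1% and 25.9% of 18488. The median log2 fold change of the tested members was 1.64, 1.51, 1.51 and 0.72 in this order of cell types, whereas that of all tested genes was −0.08, −0.08, −0.14 and −0.04 and that of tested long noncoding RNAs −0.63, −0.28, −0.37 and −0.21. With the library total alone, 5 members of HepG2, 7 of HEK293, 4 of Neuro2a and 2 of HippCulture rose, and 2, 2, 1 and 1 fell, while 1734, 1557, 1058 and 1320 of all genes rose and 15830, 11168, 12852 and 9149 fell. Every irradiated sample lay above every nonirradiated one for the same 7 genes in HepG2 (39.6% of all tested genes), 8 in HEK293 (27.1%), 7 in Neuro2a (30.4%) and 5 in HippCulture (29.3%), and below it for 2 (42.9%), 1 (32.1%), 1 (37%) and 1 (30.8%). Relative to the median of all genes the members' median was 1.721 with TMM and 1.718 with the library total in HepG2, and 0.765 and 0.744 in HippCulture. A change of scaling moves all genes of a cell type by nearly the same amount, which this subtraction removes. The closeness of these values therefore does not test the rise against the choice of scaling.

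**Figure D1:**
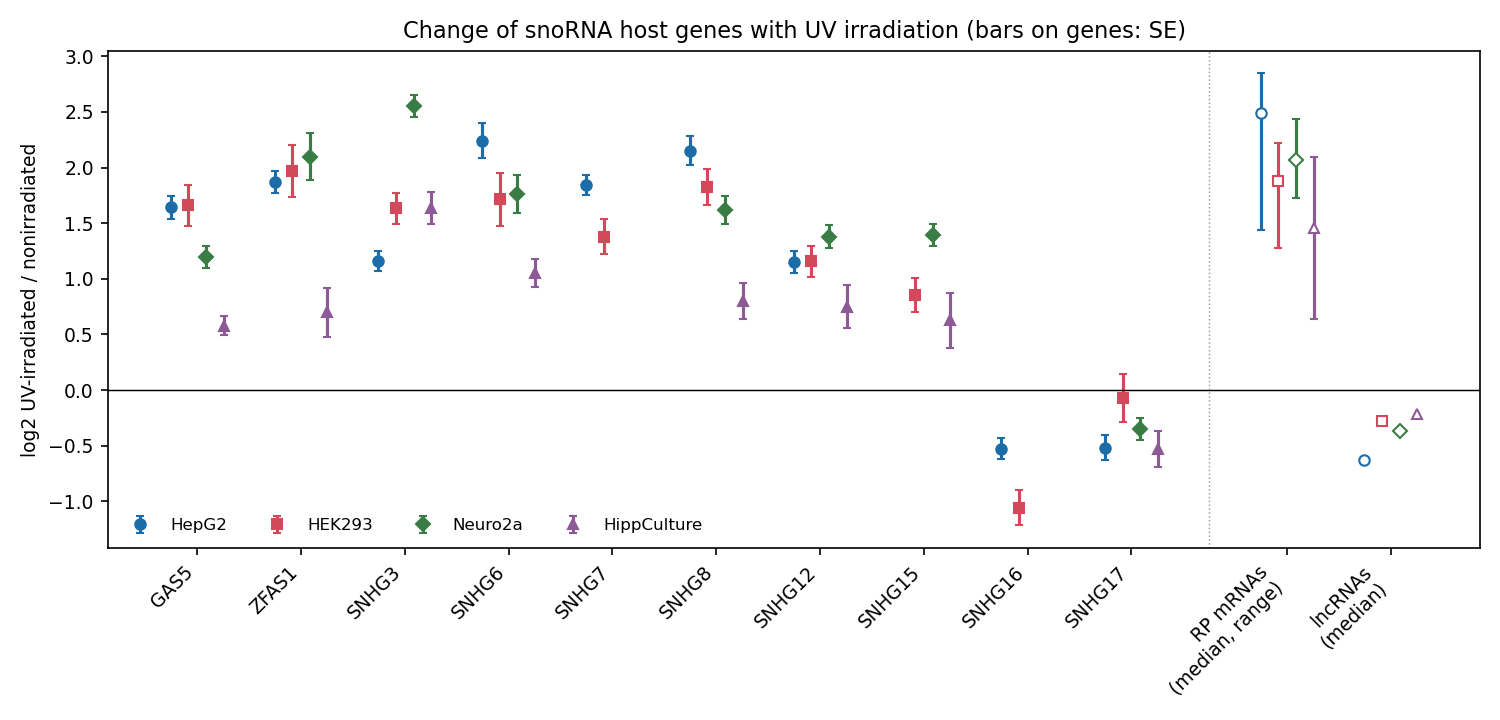
Log2 fold change (UV-irradiated over nonirradiated, TMM) of each snoRNA host gene with its standard error as bars, by cell type, with the median and range of cytosolic ribosomal protein mRNAs and the median of all tested long noncoding RNAs as open symbols. Of the 10 genes, 8 lie above 0 in every cell type in which they were tested and SNHG16 and SNHG17 below it; with the library total alone SNHG3 and SNHG12 of HepG2 fall to −0.15 and −0.16.

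GAS5, named for growth arrest-specific expression, carries a row of C/D box snoRNAs (chromosome 1 of hg38, 173863900 to 173868882, minus strand). In HepG2 it had 53.1, 69.8 and 65.2 normalised CPM without irradiation and 200.9, 196.7 and 189.6 with it. Its log2 fold change was 1.64 (SE 0.10, edgeR adjusted p = 1.1e-06), and no irradiated sample came near a nonirradiated one. In HEK293 it went from 123.3, 130.3 and 137.7 to 312.1, 420.1 and 505.4 normalised CPM, a log2 fold change of 1.66 (SE 0.18, edgeR adjusted p = 0.00013). The groups were again apart, with a wider spread among irradiated samples. Mouse Gas5 had 81.5, 86.1 and 93.6 normalised CPM in nonirradiated and 201.1, 185.6 and 211.0 in irradiated Neuro2a cells (log2 fold change 1.20, SE 0.10). In HippCulture it went from 45.2, 47.9 and 49.9 to 75.0, 66.9 and 71.2 (log2 fold change 0.58, SE 0.09, edgeR adjusted p = 1.1e-05), the smallest rise of the gene. With the library total alone these mouse values became 0.001 and 0.03, so that the rise in mouse cells is one relative to the bulk of the genes. In both mouse cell types snoRNA genes within Gas5 made up 39.3% and 28.6% of its counts without irradiation and 30.03% and 18.8% with it, and without them its log2 fold change was 1.40 and 0.76.

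ZFAS1, the antisense neighbour of ZNFX1, holds the snoRNAs of the SNORD12 group (chromosome 20 of hg38, 49278178 to 49295738, plus strand). It had 39.4, 49.9 and 49.9 normalised CPM in nonirradiated and 174.6, 168.7 and 165.0 in irradiated HepG2 cells (log2 fold change 1.87, SE 0.10, edgeR adjusted p = 5.3e-07). In HEK293 it went from 51.7, 72.2 and 73.4 to 179.0, 274.7 and 320.4, and its log2 fold change of 1.97 (SE 0.23) was the highest of the members there. In Neuro2a the change was 2.098 (SE 0.21), from 75.7, 108.1 and 121.1 to 285.6, 469.2 and 550.9. All 3 lines thus had every irradiated sample above every nonirradiated one by a wide margin. HippCulture was different in size, with 11.6, 15.1 and 5.57 normalised CPM without and 19.0, 15.7 and 17.2 with irradiation (log2 fold change 0.70, SE 0.22, edgeR adjusted p = 0.011). There the highest nonirradiated sample lay just under the lowest irradiated one, and the adjusted p was 0.171 with DESeq2 as the test and 0.053 without irradiated replicate 1. With the library total alone the log2 fold change there was 0.125 (edgeR adjusted p = 0.60). Without nonirradiated replicate 3 the log2 fold change of Zfas1 was 0.43 and still past the threshold. Of the exon bases of human ZFAS1, 11.1% lie opposite to ZNFX1, and the counting gave no strand option.

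SNHG6 and SNHG8 have the shortest exon lengths of the human members as counted, 1247 and 923 bases, and host SNORD87 and SNORA24. SNHG6 (chromosome 8, minus strand) rose from 8.84, 14.2 and 13.0 to 58.4, 57.9 and 54.8 normalised CPM in HepG2, a log2 fold change of 2.24 (SE 0.16), higher than that of 98.2% of all tested genes. SNHG8 (chromosome 4, 118278709 to 118279823, plus strand) rose from 12.2, 17.9 and 16.8 to 72.0, 68.0 and 69.1 there, a log2 fold change of 2.15 (SE 0.13). These were the 2 members with the largest changes in HepG2. In HEK293 the log2 fold changes were 1.72 (SE 0.24) for SNHG6 and 1.82 (SE 0.16) for SNHG8, and in Neuro2a 1.76 (SE 0.17) and 1.62 (SE 0.12). In HippCulture Snhg6 went from 11.1, 12.3 and 13.0 to 22.2, 26.2 and 27.4 normalised CPM, and Snhg8 from 5.71, 6.10 and 6.66 to 9.52, 10.3 and 12.1. Their log2 fold changes of 1.05 (SE 0.12) and 0.80 (SE 0.16, edgeR adjusted p = 0.00035) were smaller than in the lines, with no overlap of the groups. With the library total alone they were 0.51 (edgeR adjusted p = 0.014) for Snhg6 and 0.255 (edgeR adjusted p = 0.32) for Snhg8. A part of SNHG6, 29.3% of its exon bases, lies opposite to MCMDC2, while SNHG8 shares bases only with its own snoRNA.

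SNHG7, host of the SNORA17 copies (chromosome 9, 136721366 to 136728184, minus strand), was measured in the human lines only. In HepG2 it rose from 24.8, 30.3 and 30.7 to 100.7, 104.7 and 103.1 normalised CPM (log2 fold change 1.84, SE 0.09, edgeR adjusted p = 4.0e-07). In HEK293 it rose from 89.0, 95.6 and 106.6 to 210.9, 257.0 and 289.0 (log2 fold change 1.38, SE 0.16). Neither line had overlapping groups, and 25.2% of the exon bases lie opposite to DIPK1B.

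SNHG12 hosts SNORA44, SNORA16A, SNORA61 and SNORD99 (chromosome 1, 28578538 to 28582983, minus strand), and it rose in each of the 3 lines with TMM. The log2 fold change was 1.15 (SE 0.10) in HepG2, from 24.0, 30.2 and 31.3 to 62.0, 64.9 and 62.9 normalised CPM (but −0.16 with the library total alone), 1.16 (SE 0.14) in HEK293 and 1.38 (SE 0.10) in Neuro2a. With the library total alone its difference between HepG2 and HEK293 was −0.55 (edgeR adjusted p = 0.036), and its change in Neuro2a was 0.18 (edgeR adjusted p = 0.11). In HippCulture the values of 7.84, 10.7 and 5.37 without and 14.8, 10.47 and 14.2 with irradiation overlapped, and the log2 fold change was 0.75 (SE 0.20, edgeR adjusted p = 0.0032). With the library total alone it was 0.19 there (edgeR adjusted p = 0.44). SNHG15, host of SNORA9 (chromosome 7, 44983023 to 44986961, minus strand), was nearly missing from HepG2, with 3, 2 and 2 counts in nonirradiated and 0, 0 and 2 in irradiated samples, and was not tested there. In HEK293 it had 54.6, 64.1 and 63.6 normalised CPM without and 90.5, 118.0 and 121.3 with irradiation, a log2 fold change of 0.86 (SE 0.15, edgeR adjusted p = 0.0016). In Neuro2a the change was 1.40 (SE 0.10). Both calls ended with the library total alone, where the values were 0.10 (edgeR adjusted p = 0.66) in HEK293 and 0.20 (edgeR adjusted p = 0.093) in Neuro2a. In HippCulture 23 to 38 counts per sample stood behind it, the groups overlapped, and its log2 fold change of 0.63 (SE 0.25) had an edgeR adjusted p of 0.043 that was 0.121 with DESeq2 as the test, 0.068 with at least 10 counts asked of every sample, and 0.080 to 0.158 without nonirradiated replicate 1 or 3 or irradiated replicate 1 or 2. With the library total alone Snhg15 changed by 0.07 there (edgeR adjusted p = 0.84).

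**Figure D2:**
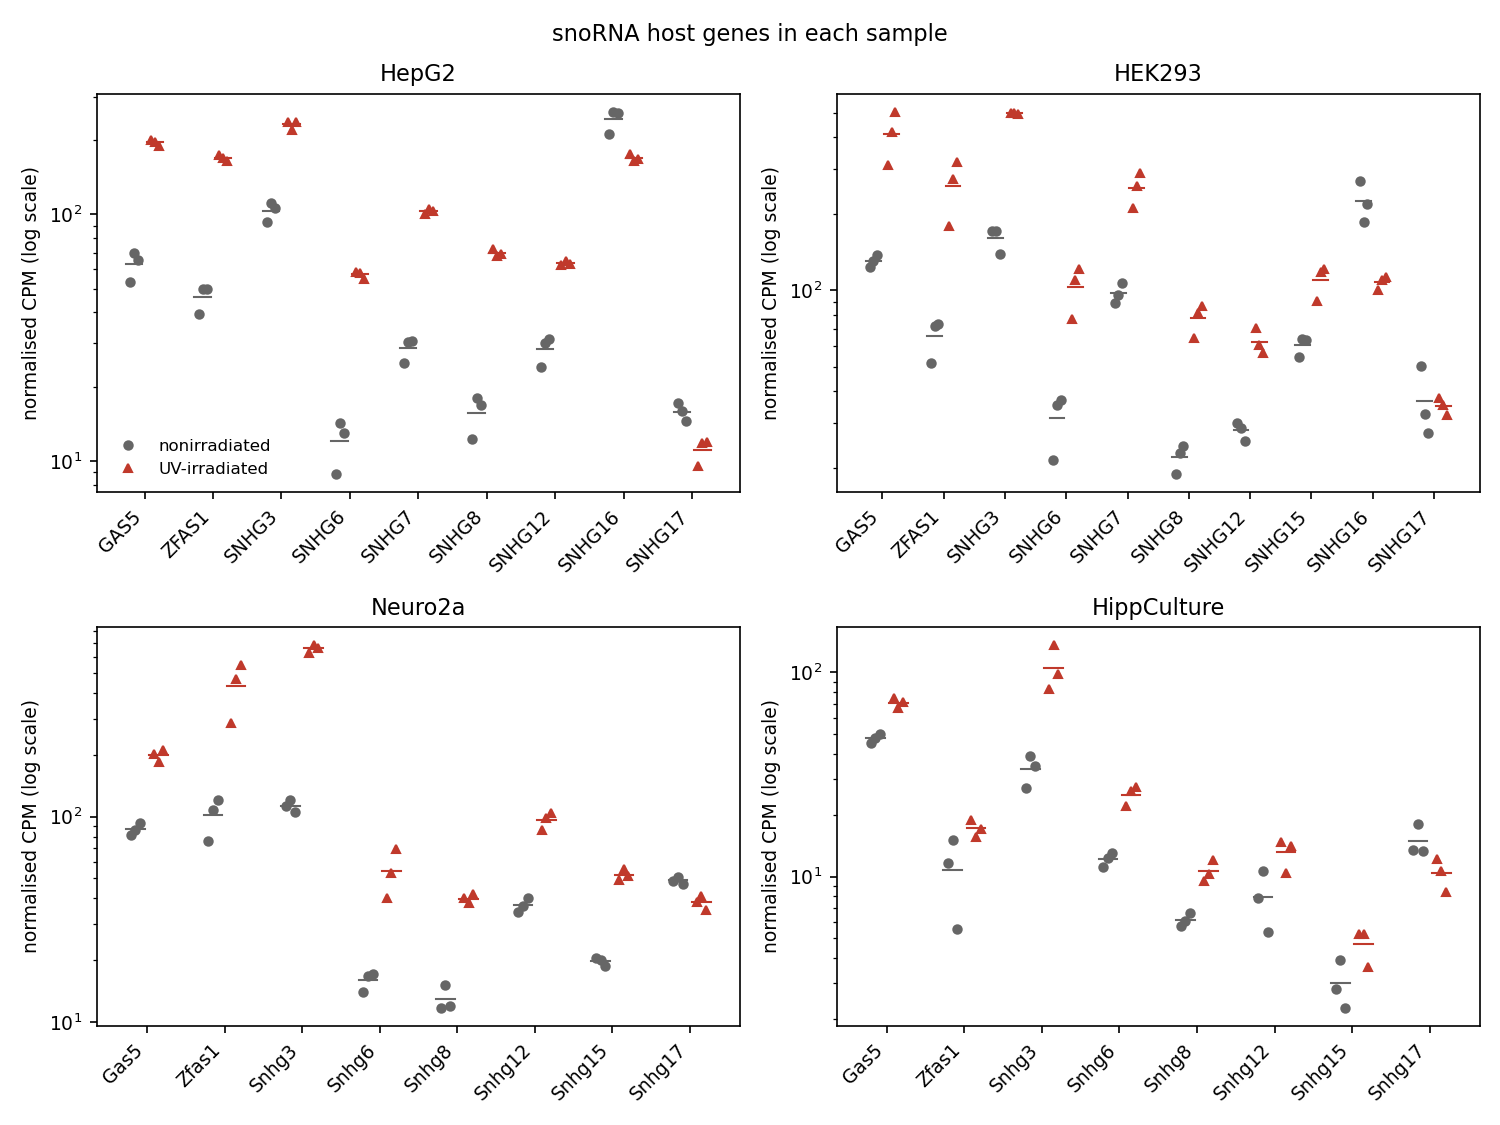
Normalised CPM (log scale) of each tested snoRNA host gene in the 3 nonirradiated (grey circles) and 3 UV-irradiated samples (red triangles) of each cell type, with group means as lines. The groups of Snhg12 and Snhg15 in HippCulture and of SNHG17 in HEK293 overlap, and those of the other genes do not.

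SNHG3 looked like the others in its total, but its counts came from 2 kinds of RNA. SNHG3 (chromosome 1, 28505980 to 28510892, plus strand) hosts SNORA73A and SNORA73B, also known as U17, which act in the cleavage of the ribosomal RNA precursor. The snoRNA SNORA73A lies whole within an annotated exon of SNHG3 in human, and 159 of the 205 bases of mouse Snora73a do, so that reads of this abundant snoRNA were counted for the host as well. To show the molecule, the last 30 bases of each snoRNA of the group are given 5′ to 3′ (GENCODE 44 on hg38, plus strand, and M21 on mm10, minus strand), with the ACA box of H/ACA snoRNAs in capitals, 3 bases from the end.
SNORA73A (chr1:28507542-28507571): ctggggagacaaaccatgcaggaaACAgcc
SNORA73B (chr1:28508733-28508762): ctggggagacaaaccatgcaggaaACAtat
Snora73a (chr4:132352775-132352804): ctgaggagacaaaccatgcaggaaACAgtt
Snora73b (chr4:132352322-132352351): ctgaggagacaaaccatgcaggaaACAaaa
The copies differ within this stretch only by a few letters, and 93.7% of the letters of the human pair are shared in order over their whole length, so reads may be split between the copies in a way that the counts do not show.

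SNORA73A itself had 2000, 2746 and 1842 counts in nonirradiated and 5688, 4267 and 5333 in irradiated HepG2 samples, a log2 fold change of 2.42 (SE 0.10). It was 1.98 (SE 0.14) in HEK293, 2.62 (SE 0.10) in Neuro2a and 1.69 (SE 0.16) in HippCulture. Counts of this snoRNA came to 30.3% of those of SNHG3 in nonirradiated and 73.8% in irradiated HepG2 cells, and to 69.2% and 88.0% in HEK293. In mouse they were 94.1% and 98.7% in Neuro2a and 93.2% and 96.4% in HippCulture, so that the mouse gene was counted almost wholly through its snoRNA.

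In its total, SNHG3 went from 93.1, 111.4 and 106.3 to 237.5, 219.2 and 237.6 normalised CPM in HepG2, a log2 fold change of 1.16 (SE 0.09) that was −0.15 with the library total alone. The totals changed by 1.63 (SE 0.14) in HEK293, 2.55 (SE 0.10) in Neuro2a and 1.64 (SE 0.14) in HippCulture, where Snhg3 had the largest change of the members in both mouse cell types. Without the counts of SNORA73A, the rest of SNHG3 had 57.6, 79.1 and 78.3 normalised CPM in nonirradiated and 61.6, 58.0 and 62.2 in irradiated HepG2 samples. These groups overlapped, and the log2 fold change of the rest was −0.24 (SE 0.12, edgeR adjusted p = 0.0893). In HEK293 the rest went from 57.2, 47.5 and 43.9 to 54.4, 55.5 and 67.3 (log2 fold change 0.26, SE 0.15, edgeR adjusted p = 0.19). The mouse remainders were small, with 35 to 98 counts per Neuro2a sample and 13 to 34 per HippCulture sample, and changed by 0.38 (SE 0.20, edgeR adjusted p = 0.11) and 0.66 (SE 0.27, edgeR adjusted p = 0.049). Of the exon bases of mouse Snhg3, 71.5% lie opposite to Gm17300 and 13.7% are shared with Rcc1 on the same strand. The part of these genes in the remainders was not tested. Leaving the snoRNA counts out thus ended the call for SNHG3 in the 3 lines and turned its direction in HepG2, and lowered the number of members that rose to 6 of 9 in HepG2, 7 of 10 in HEK293 and 6 of 8 in Neuro2a. No other member from which snoRNA counts were taken lost or gained a call within its cell type. From mouse Snhg6 nothing was taken, since its snoRNA gene shares no exon bases with it. Within human GAS5 no snoRNA gene was matched in the files, so snoRNA reads in its counts could not be taken out. Its exons as counted cover 3631 bases against 768 in the canonical transcript, and the part of snoRNAs in its rise was not tested.

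**Figure D3:**
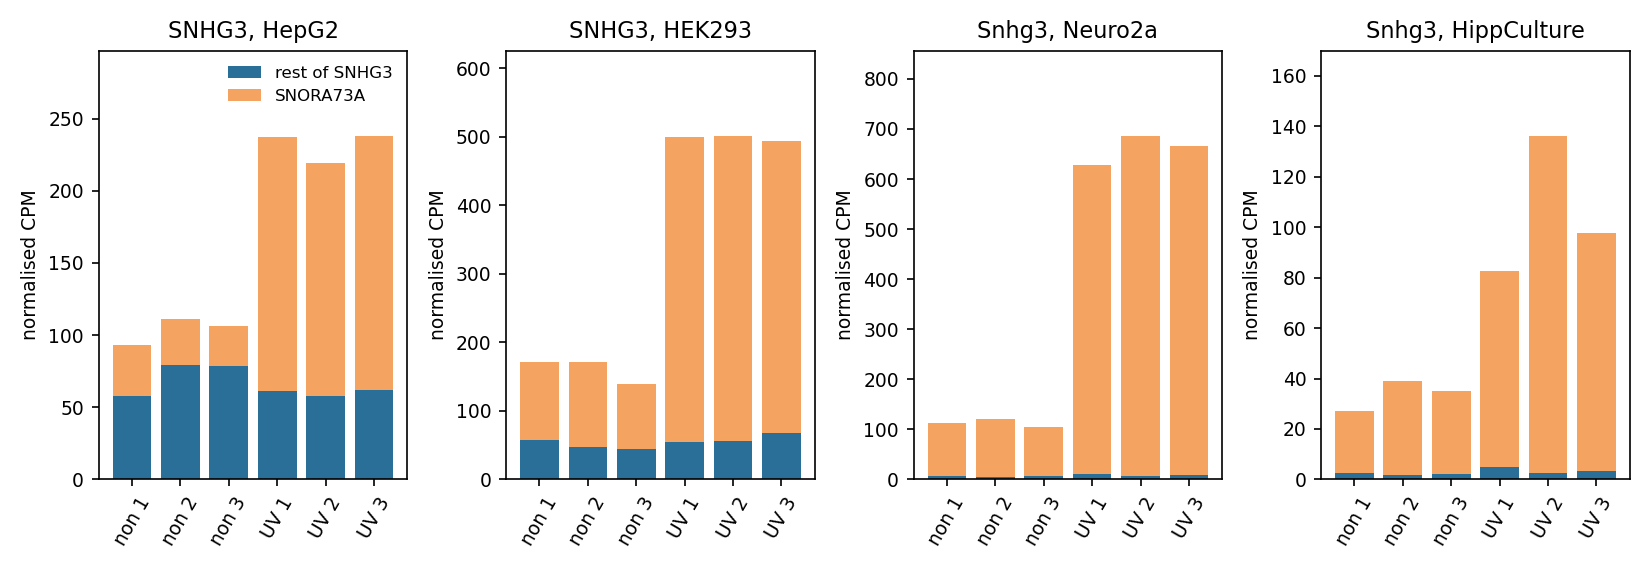
Normalised CPM of SNHG3 in each sample (non, nonirradiated; UV, UV-irradiated), divided into the counts of the snoRNA gene SNORA73A within its exon and the rest. In HepG2 the rest lies between 57.6 and 79.1 without and between 58.0 and 62.2 with irradiation, and the increase of the bars is that of the snoRNA.

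SNHG16 and SNHG17 went the other way. SNHG16, host of the SNORD1 group (chromosome 17, 76557766 to 76565348, plus strand), had 212.7, 261.0 and 257.2 normalised CPM in nonirradiated and 175.2, 163.9 and 168.1 in irradiated HepG2 cells (log2 fold change −0.53, SE 0.09, edgeR adjusted p = 0.00066). In HEK293 it fell from 268.3, 185.6 and 218.6 to 100.3, 109.9 and 112.7, a log2 fold change of −1.06 (SE 0.16, edgeR adjusted p = 0.00065). Each irradiated sample lay below each nonirradiated one in both lines. Of its exon bases as counted, 30.6% lie opposite to a protein-coding gene, ENSG00000284526, and the part of that gene in the counts was not tested.

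SNHG17 hosts the SNORA71 group (chromosome 20, 38420588 to 38435353, minus strand). In HepG2 it fell from 17.1, 16.0 and 14.5 to 9.56, 11.8 and 11.9 normalised CPM, a log2 fold change of −0.52 (SE 0.11, edgeR adjusted p = 0.0020). HEK293 gave 50.5, 32.4 and 27.3 without and 37.6, 35.1 and 32.3 with irradiation, which overlapped (log2 fold change −0.07, SE 0.22, edgeR adjusted p = 0.81), and the value was 0.23 without nonirradiated replicate 1 and 0.026 without irradiated replicate 3. With the library total alone SNHG17 fell in HEK293 as well, by a log2 fold change of −0.83 (edgeR adjusted p = 0.0049). In Neuro2a Snhg17 fell from 48.4, 51.1 and 47.2 to 38.5, 41.1 and 35.3 (log2 fold change −0.35, SE 0.10, edgeR adjusted p = 0.0067). In HippCulture it fell from 13.6, 18.2 and 13.3 to 12.2, 10.7 and 8.39 (log2 fold change −0.53, SE 0.16, edgeR adjusted p = 0.010), but the value was −0.35 (adjusted p = 0.067) without nonirradiated replicate 2 and −0.38 (adjusted p = 0.10) without irradiated replicate 3. Human SNHG17 stood above 38.1% of all tested genes in HepG2 and above 50.3% in HEK293, whereas the 7 members that rose in HepG2 stood above 82.8% to 98.2%.

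Exon length as counted, the union of the exons in the files, ran from 923 bases (SNHG8) to 5362 (SNHG16) in human and from 853 (Snhg8) to 7052 (Snhg17) in mouse, and by this measure the longest gene had the lowest log2 fold change in each cell type. Over the tested members the Spearman correlation of exon length with the log2 fold change was −0.77 in HepG2 (n = 9), −0.79 in HEK293 (n = 10), −0.67 in Neuro2a (n = 8) and −0.86 in HippCulture (n = 8). Over all tested genes it was −0.08, −0.21, −0.27 and −0.22, and over long noncoding RNAs −0.13, −0.10, −0.10 and −0.12. For the human genes the relation turned when length was that of the canonical transcript in GENCODE 44, an alternative chosen after seeing the data, with a correlation of 0.62 in HepG2 and 0.55 in HEK293. By that measure SNHG16 was the shortest of the 10 (498 bases) and SNHG8 the longest (6166). The canonical transcripts of SNHG8, ZFAS1 (4526 bases) and SNHG6 (1821) are longer than all exons counted for them (923, 2243 and 1247). The reads were counted on release 28, so the turn mixes the way length is taken with the annotation release. The part of each in the sign of the relation was not tested. These are descriptions over genes that share libraries, and the mouse values include Snhg3, whose counts were those of its snoRNA. The order of the members was much alike in the 2 human lines (Spearman correlation 0.88 over 9 genes) and in the 2 mouse cell types (0.81 over 8). It was less so between species, with 0.595 for HEK293 and Neuro2a and 0.43 for HEK293 and HippCulture (over 8 each). HepG2 gave 0.46 with Neuro2a and 0.46 with HippCulture (over 7 each). In all of these pairs each gene had the same sign in both cell types.

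**Figure D4:**
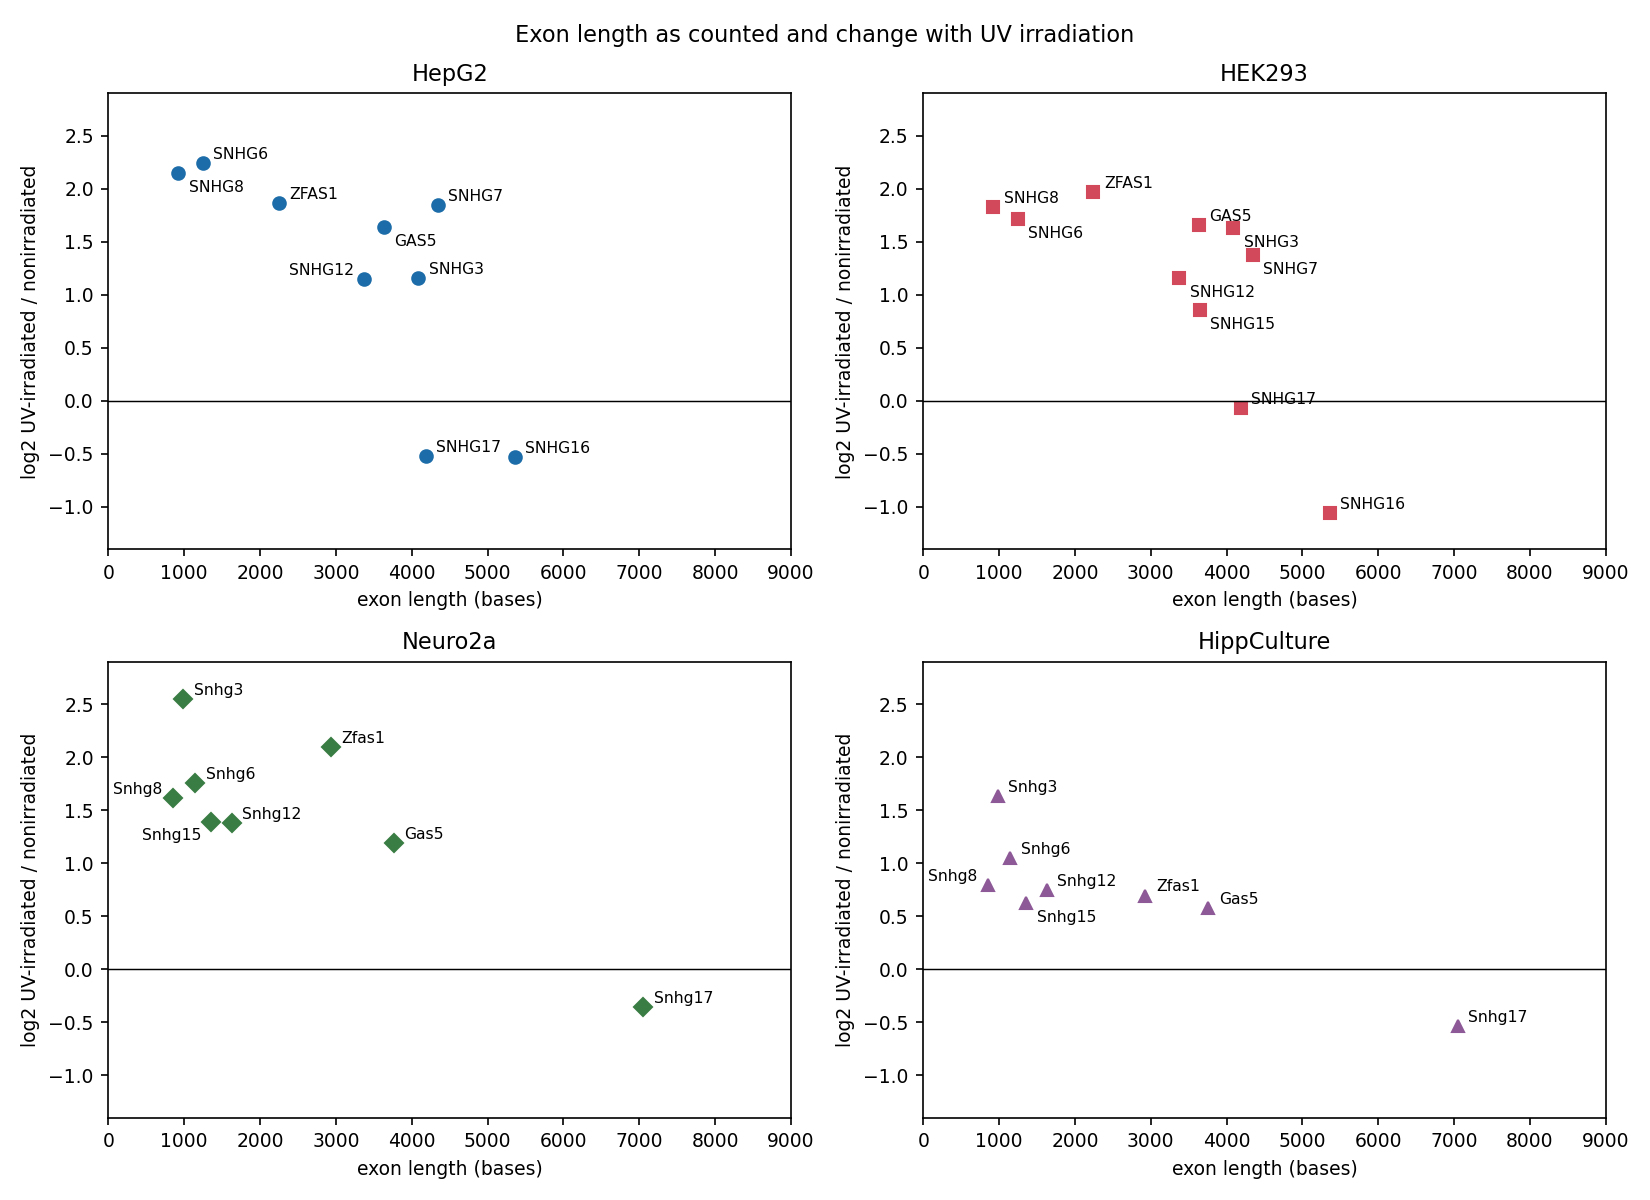
Exon length as counted (bases) and log2 fold change (UV-irradiated over nonirradiated) of the tested snoRNA host genes in each cell type. SNHG16 in the human lines and Snhg17 in the mouse cells have the longest union of exons and are the lowest points. By the canonical transcript of GENCODE 44, a later release than the one counted, SNHG16 is the shortest human gene (498 bases).

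Beside the members, the cytosolic ribosomal protein mRNAs, the main TOP class, all rose, with 79 of 79 in HepG2 and HEK293 and 78 of 78 in Neuro2a and HippCulture, and medians of 2.49, 1.88, 2.07 and 1.46. These medians were above those of the snoRNA host genes in each cell type, and the difference was not tested. The lowest and highest were RPL28 (1.44) and RPL35 (2.85) in HepG2 and RPL15 (1.27) and RPS29 (2.22) in HEK293. In mouse they were Rpl27 (1.73) and Rplp1 (2.44) in Neuro2a and Rpl22 (0.64) and Rps16 (2.09) in HippCulture. GAS5, ZFAS1, SNHG6, SNHG7 and SNHG8 lay within the range of the ribosomal proteins in HepG2 (5 of 9), and the same genes with SNHG3 did in HEK293 (6 of 10). In Neuro2a only Zfas1 and Snhg6 did (2 of 8), with Snhg3 above the range and 5 members below it. In HippCulture 5 of 8 lay within it, and Gas5, Snhg15 and Snhg17 below.

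Of other TOP mRNAs, those of translation factors and their like, 14 of 15 rose in HepG2, 13 of 16 each in HEK293 and Neuro2a and 11 of 16 in HippCulture, with medians of 1.42, 1.00, 1.16 and 0.64. EEF1B2, a subunit of the elongation factor that recycles eEF1A, was the highest in each cell type (2.35, 1.82, 1.99 and 1.39). The lowest was PABPC1, the poly(A)-binding protein, at −0.25 (edgeR adjusted p = 0.53) in HepG2 and −0.28 (edgeR adjusted p = 0.13) in HEK293. It was Nap1l1 in Neuro2a (−0.66, edgeR adjusted p = 0.0001) and Eif4b in HippCulture (−0.17, edgeR adjusted p = 0.20).

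The other noncoding snoRNA host genes, a list that holds SNHG1, SNHG4 and SNHG5, rose in 11 of 15 cases in HepG2 and 12 of 16 in HEK293. In the mouse cells (Neuro2a and HippCulture) 6 of 7 and 5 of 9 rose, and the 4 medians were 1.06, 1.24, 1.63 and 0.76. SNHG4 was called decreased in HepG2 (−0.78, edgeR adjusted p = 4.1e-05) and HEK293 (−0.40, edgeR adjusted p = 0.040). SNHG1 and SNHG5 rose except for SNHG1 in HEK293 (0.37, edgeR adjusted p = 0.21) and Snhg5 in HippCulture (0.06, edgeR adjusted p = 0.80). SNHG14, the long host transcript of the Prader-Willi region, was the lowest in each cell type (−0.96, −1.38, −2.79 and −1.12, called decreased in all), and SNHG5 in HepG2 (2.36) and SNHG9 in the others (1.87, 2.42 and 1.31) the highest. Protein-coding host genes outside the ribosome stayed nearer to all genes, with 15 of 26, 7 of 26, 12 of 25 and 11 of 25 increased and medians of 0.34, 0.10, 0.18 and 0.21. CNOT1, the scaffold of the deadenylase complex, was the lowest of these in HepG2 (−0.81) and Neuro2a (−0.96), and AP1G1, an adaptor of clathrin vesicles, in HEK293 (−1.11) and HippCulture (−0.59). IMP4 (1.70), PPAN (1.16), Taf1d (1.598) and Ppan (1.13) were the highest in HepG2, HEK293, Neuro2a and HippCulture, and IMP4 and PPAN both act in ribosome assembly. Among 9574 further genes tested in all 4 cell types, the 5 nearest to the median of the members, by the root mean square difference over the 4 log2 fold changes, were PLEKHO1 (0.07), SRA1 (0.07), EBPL (0.07), SS18L2 (0.08) and NUDT22 (0.09).

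The change differed between the 2 mouse cell types for most members and between the 2 human lines for few. In an edgeR fit of both mouse cell types, 6 of 8 members rose more in Neuro2a than in HippCulture and none less, where 8.39% of 14973 genes had a higher and 16.1% a lower change in Neuro2a. The difference was 1.39 for Zfas1 (SE 0.36, edgeR adjusted p = 0.0085), 0.91 for Snhg3 (SE 0.20), 0.82 for Snhg8 (SE 0.20), 0.77 for Snhg15 (SE 0.25, edgeR adjusted p = 0.030), 0.70 for Snhg6 (SE 0.22) and 0.61 for Gas5 (SE 0.13, edgeR adjusted p = 0.0023). Snhg12 at 0.62 (SE 0.23) missed the threshold with an edgeR adjusted p of 0.052, and with the replicate number as a block it was 0.59 with an adjusted p of 0.011. Snhg17 had 0.17 (SE 0.19, edgeR adjusted p = 0.54). With the library total alone none of the 8 differences passed, and without the snoRNA counts that of Snhg3 became −0.28 (edgeR adjusted p = 0.58). For Snhg6 the adjusted p was 0.056 to 0.084 without nonirradiated replicate 1 or irradiated replicate 3 of Neuro2a, or nonirradiated replicate 3 or irradiated replicate 1 of HippCulture. For Snhg15 it was 0.054 to 0.150 without nonirradiated replicate 3 or irradiated replicate 2 of Neuro2a, or nonirradiated replicate 2 or irradiated replicate 3 of HippCulture.

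Between the human lines only SNHG3 passed, with a change lower by 0.58 on the log2 scale in HepG2 than in HEK293 (difference −0.58, SE 0.16, edgeR adjusted p = 0.043), where 3.1% of 16759 genes had a higher and 4.84% a lower change in HepG2. Without the snoRNA counts the difference was −0.60 (edgeR adjusted p = 0.083), and it missed the threshold, with an adjusted p of 0.055 to 0.102, when any sample was left out other than nonirradiated replicate 1 of either line or irradiated replicate 1 of HEK293. The other differences ran from −0.55 (SNHG17, SE 0.26, edgeR adjusted p = 0.21) to 0.43 (SNHG6, SE 0.31, edgeR adjusted p = 0.43). In HEK293 the replicate numbers paired the samples, and with the number as a block SNHG7 (0.38, edgeR adjusted p = 0.034) and SNHG17 (−0.60, edgeR adjusted p = 0.037) passed as well. Both lines were read on different sequencer models, and the model cannot be told apart from the line.

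Without irradiation the tested members were among the more abundant long noncoding RNAs, less so in HippCulture. They are compared here per exon length as counted, as RPKM (CPM per kilobase of exon) scaled by the library total. In HepG2 SNHG16 was the highest with 71.5 ± 9.0 RPKM (SD, n = 3), followed by SNHG3 (39.9 ± 4.3), ZFAS1 (32.6 ± 4.7), GAS5 (27.2 ± 4.2), SNHG8 (26.7 ± 5.6), SNHG6 (15.2 ± 3.8), SNHG12 (13.3 ± 2.0), SNHG7 (10.4 ± 1.4) and SNHG17 (5.95 ± 0.42). SNHG16 with 61.1 to 77.5 RPKM was apart from the rest, SNHG17 was apart at the lower end, and neighbours from SNHG3 to SNHG7 overlapped except for SNHG8 and SNHG6. SNHG15 had 0.0153 ± 0.0064 RPKM in HepG2 against 21.8 ± 2.7 in HEK293. In HEK293 the order was SNHG16 (54.4 ± 8.9), SNHG3 (51.1 ± 4.1), GAS5 (47.0 ± 4.7), ZFAS1 (38.5 ± 8.4), SNHG6 (32.9 ± 10.1), SNHG8 (31.1 ± 5.2), SNHG7 (29.2 ± 4.0), SNHG15 (21.8 ± 2.7), SNHG17 (11.4 ± 3.3) and SNHG12 (10.8 ± 0.44). Neighbours in this order overlapped, except SNHG7 with SNHG15 and SNHG15 with SNHG17. The level of SNHG3 includes its snoRNA, and the exon bases outside SNORA73A had 16.6 ± 1.6 RPKM in HEK293, below SNHG15, and 29.1 ± 5.4 in HepG2. Of the tested long noncoding RNAs, 83.2% to 99.1% lay below each of the 9 members in HepG2 and 87.6% to 98.1% below each of the 10 in HEK293. For the 8 mouse members the share ran from 89.97% (Snhg17) to 99.3% (Snhg3) in Neuro2a. In HippCulture it ran from 66.4% (Snhg17) and 67.65% (Snhg15) to 98.1% (Snhg3).

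In the edgeR fit of both human lines the nonirradiated level of SNHG7 was lower in HepG2 than in HEK293 by 1.05 on the log2 scale (difference −1.05, SE 0.14, edgeR adjusted p = 8.7e-06), and those of SNHG6 (−0.67, SE 0.22) and SNHG17 (−0.50, SE 0.18) were lower too. SNHG16 (0.83, SE 0.13) and SNHG12 (0.74, SE 0.12) were higher in HepG2. In all 35.6% of the tested genes were higher and 35.9% lower in HepG2, so that 5 of 9 members past the threshold is not above the share of all genes. The edgeR adjusted p of SNHG6 was 0.064 to 0.081 without nonirradiated replicate 1 of HepG2 or replicate 2 or 3 of HEK293. That of SNHG17 was 0.075 without nonirradiated replicate 3 of HepG2 and 0.16 without nonirradiated replicate 1 of HEK293, where the difference fell to −0.22. GAS5, with −0.35 (SE 0.16, edgeR adjusted p = 0.068), passed with the replicate number as a block (−0.35, edgeR adjusted p = 0.0078). For SNHG3 the difference of the total was 0.08, and without the snoRNA counts it was 1.246 (edgeR adjusted p = 2.3e-06), higher in HepG2.

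In the mouse all 8 members were higher in nonirradiated Neuro2a than in HippCulture, where 39.2% of 14973 genes were higher in Neuro2a and 36.4% lower. The log2 difference ran from 0.54 for Snhg6 (SE 0.16, edgeR adjusted p = 0.0053) and 1.01 for Gas5 (SE 0.09) to 2.86 for Snhg15 (SE 0.16) and 3.39 for Zfas1 (SE 0.26, edgeR adjusted p = 9.5e-11). In RPKM, Zfas1 had 39.0, 56.3 and 62.2 in Neuro2a and 4.999, 6.65 and 2.09 in HippCulture, and Snhg15 had 22.8, 22.4 and 20.7 against 2.60, 3.73 and 1.85. Snhg3 was the highest member in both, with 172.5 ± 12.8 RPKM in Neuro2a and 41.6 ± 8.5 in HippCulture (SD, n = 3), values that its snoRNA made up almost wholly. Snhg17 was the lowest in both, with 10.49 ± 0.50 and 2.61 ± 0.65 RPKM, and in HippCulture its samples overlapped with those of Snhg15 and Zfas1.

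**Figure D5:**
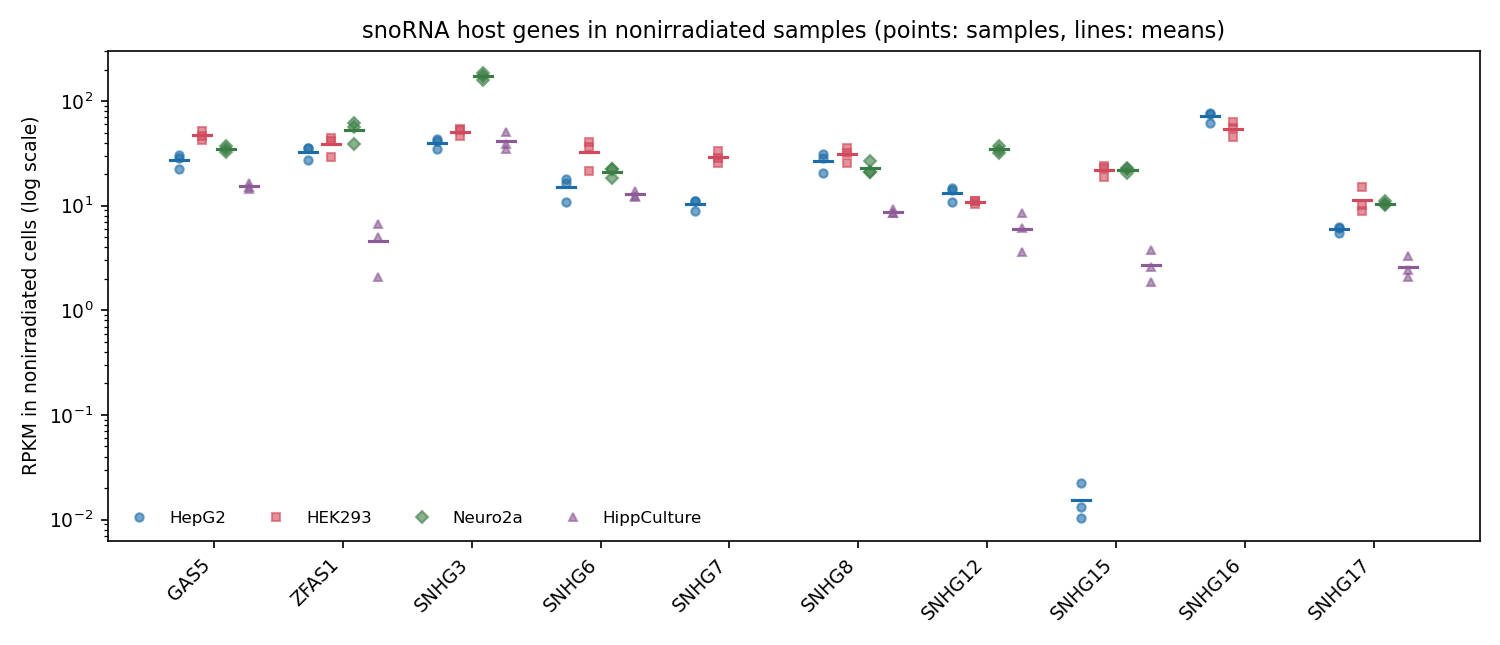
RPKM (log scale) of the snoRNA host genes in the 3 nonirradiated samples of each cell type, with means as lines. The HippCulture samples lie below those of Neuro2a for each of the 8 mouse genes, and SNHG15 in HepG2 lies at 0.0103 to 0.0225 RPKM.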

How the data were processed

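RNA of 24 samples, 3 nonirradiated and 3 UV-irradiated of each of 4 cell types, was used as deposited. Per the submitters' notes and the file headers, the authors mapped reads with TopHat2 2.1.1 to hg38 or mm10 and counted those on GENCODE exons (release 28 or M17) with featureCounts 1.5.3 (HepG2) or 1.6.1. The values deposited by the authors are raw counts per gene, where reads over shared exon bases were added to every gene concerned, and the headers show neither a strand setting nor one for multimapped reads. The labels name a stranded kit and the methods an unstranded one, so the kind of library is not settled here.

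Symbols and classes came from GENCODE 44 and M21 by Ensembl ID (99.0% of human and 99.82% of mouse genes matched), and lengths from the exons in the files. Cell types were fitted singly with edgeR 4.0.16 in R 4.3.3 (TMM, quasi-likelihood test, Benjamini-Hochberg adjustment over all genes tested), over genes with a mean of at least 0.5 CPM in nonirradiated samples, and differences between cell types of a species in a joint fit. The standard error is the log2 fold change divided by the root of F. No 2 replicates agreed within sampling noise. Totals of 6910907 to 53511592 counts per sample set the precision, which is least for mouse members with few counts in HippCulture. The members and the gene lists were chosen with earlier results of these data known. The text names all members in each cell type, the lowest and highest tested gene of each list and the 5 genes nearest to the members' median. The alternatives were DESeq2's size factors, the library total alone, DESeq2 1.42.0 as the test, at least 1 count over the samples, at least 10 counts in every sample, the replicate number as a block, each sample left out, and member counts without those of snoRNA genes in their exons, taking the highest count where snoRNA genes overlap. The length of the canonical transcript was added after seeing the data. In HEK293 and Neuro2a the numbers were taken to pair the samples, since deviations from the group means correlated by 0.43 to 0.70 and 0.13 to 0.36 within each number. The limit for this was set at a correlation of 0.1. The fits were run on simulated counts with 200 genes changed, as many up as down. Of genes changed by 1 on the log2 scale 51% to 57% were recovered per cell type, and of those changed by 2, 99% to 100%. Of the calls 1.9% to 5.6% were false. The bulk of the genes was not shifted in the simulation, so it could not test the choice of scaling.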

Additional observations from a re-analysis of the deposited data

Results flagged for a closer look

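The effect of irradiation differed between the 2 cell types of a species, by a test of the difference itself, in 7 cases that concern 6 of the 10 genes. In HepG2 against HEK293 the difference was −0.577 for SNHG3 (log2), where 3.1% of 16759 genes had a higher and 4.84% a lower change in HepG2. In Neuro2a against HippCulture it was 0.611 for Gas5, 1.394 for Zfas1, 0.909 for Snhg3, 0.704 for Snhg6, 0.819 for Snhg8 and 0.765 for Snhg15. There 8.39% of 14973 genes had a higher and 16.1% a lower change in Neuro2a. With the library total alone none of these mouse differences passed the threshold. The counts of SNHG3 and Snhg3 include those of a snoRNA gene, and without them the differences were −0.60 (edgeR adjusted p = 0.083) and −0.28 (edgeR adjusted p = 0.58). No outlier test was run, since the groups hold 3 samples each.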

How the results depend on the processing

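Over the 69 log2 values of single members, within and between cell types, 67 kept their direction and their side of the threshold with DESeq2's size factors, 65 with DESeq2 as the test, 64 with at least 1 count, 68 with at least 10 counts, 65 under a replicate block and 63 without snoRNA counts, but 39 with the library total alone. In that last setting 1734 genes rose and 15830 fell in HepG2, and 1557 and 11168 did so in HEK293. The mouse cells gave 1058 and 12852 (Neuro2a) and 1320 and 9149 (HippCulture). It left 4 members increased in Neuro2a and 2 in HippCulture, 2 decreased in HEK293, 3 with a lower UV effect and 5 with a lower nonirradiated level in HepG2 than in HEK293, and 0 with a higher UV effect in Neuro2a than in HippCulture. It turned SNHG3 (−0.15) and SNHG12 (−0.16) in HepG2, the HepG2 to HEK293 difference in UV effect of SNHG6 (−0.022), SNHG7 (−0.08), SNHG8 (−0.22) and SNHG16 (−0.019) and in level of ZFAS1 (−0.24), SNHG3 (−0.36) and SNHG8 (−0.22), and the Neuro2a to HippCulture difference in UV effect of Gas5 (−0.031), Snhg12 (−0.014) and Snhg17 (−0.46).

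With at least 1 count, 0 members had a lower UV effect in HepG2 than in HEK293 and 4 a higher level. Without snoRNA counts, SNHG3 turned to −0.24 in HepG2, Snhg3 to −0.28 between the mouse cell types, and 0 members differed in UV effect between the human lines. With the replicate block, 1 member had a higher and 2 a lower UV effect in HepG2 than in HEK293, and no count of members called within a cell type changed. In HepG2 and HippCulture the numbers were not taken to pair the samples (correlations of −0.03 to 0.00 and of 0.07 to 0.15), and the block changed no member's call there. The limit was a correlation of 0.1, which replicate number 1 of HippCulture passed. Different numbers there averaged −0.05, so a weak pairing in HippCulture is not excluded.

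With each sample left out, 7 members rose and 2 fell in HepG2, 8 rose and 1 fell in HEK293, and 7 rose and 1 fell in Neuro2a, against 5 to 7 and 0 to 1 in HippCulture. SNHG17 in HEK293 ran from −0.24 to 0.23, the GAS5 difference in UV effect between the human lines from −0.291 to 0.049 and the SNHG3 difference in level from −0.001 to 0.15. Members with a lower UV effect in HepG2 than in HEK293 numbered 0 to 2. The cause of these changes was not tested. The fewest counts stood behind Snhg15 in HippCulture, with 23 to 38 per sample. With the canonical transcript length, chosen after seeing the data, the rank correlation of length and log2 fold change turned to 0.617 in HepG2 and 0.552 in HEK293. These lengths are from a later annotation release than the one counted.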

Other observations

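Values of the snoRNA genes inside the hosts were looked at after those of the hosts, and the following were chosen after their values were seen. Within SNHG17, which did not rise, SNORA71A had 95, 56 and 61 counts in nonirradiated and 134, 135 and 137 in irradiated HEK293 samples (log2 fold change 1.56, SE 0.25, edgeR adjusted p = 0.00090), and SNORA71D changed by 1.73 (SE 0.30, edgeR adjusted p = 0.0014). In HepG2 SNORA71A changed by 0.88 (SE 0.23, edgeR adjusted p = 0.0058) and SNORA71C by −0.83 (SE 0.32, edgeR adjusted p = 0.039). SNORA71 changed by −2.85 (SE 0.49) there, on 34, 39 and 30 counts without and only 2, 3 and 1 with irradiation. SNORA71B, with 78, 80 and 58 counts without and 11, 1 and 8 with irradiation, changed by −2.25 (SE 0.48, edgeR adjusted p = 0.0022). In HEK293 SNORA71B changed by 0.39 (edgeR adjusted p = 0.61) and SNORA71C by 0.28 (edgeR adjusted p = 0.53), and SNORA71 was not tested. These copies are alike in sequence and their reads may be split between them. Within SNHG7, SNORA17B changed by 2.28 (SE 0.28) in HEK293 and SNORA17A by 0.17 (SE 0.39, edgeR adjusted p = 0.74), with 19 to 34 and 12 to 22 counts per sample in the 2 groups for the latter.

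Within ZFAS1, SNORD12C changed by 0.61 (SE 0.21, edgeR adjusted p = 0.026) and SNORD12B by −0.56 (SE 0.19, edgeR adjusted p = 0.023) in HepG2, while the host changed by 1.87. HEK293 did not share this contrast, with SNORD12C at −0.56 (edgeR adjusted p = 0.23) and SNORD12B at 0.38 (edgeR adjusted p = 0.32). SNORD12 changed by −0.16 in HepG2 (edgeR adjusted p = 0.50) and 0.24 in HEK293 (edgeR adjusted p = 0.56). Replicate 1 of HEK293 was the lowest of its group for GAS5, ZFAS1, SNHG6, SNHG7, SNHG8 and SNHG15 and the highest for SNHG12 and SNHG17, in nonirradiated and irradiated samples alike, while for SNHG16 it was the highest without and the lowest with irradiation.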
